A study of Mus musculus with 24 samples.

Results

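The 33 interferon-stimulated genes (ISGs) described here were picked by symbol from the 55335 genes counted in each library of cultured primary osteoblasts (OBs), and each symbol was found. They cover 8 roles, namely transcription factors, the OAS family, the IFIT family, GTPases, the ISG15 and ubiquitin system, nucleic acid sensors, PARP enzymes and other antiviral effectors. RNASeq was done on OBs grown in osteogenic medium from parietal bones of pups aged 4 to 5 days. The 24 libraries fall into 6 groups, WT and Het at days 8, 14 and 21 of culture, each with replicates 1 to 4. WT cultures were wild type, and Het cultures carried 1 *Col1a2* allele in which a triple-helical glycine of the procollagen α2(I) chain is replaced by cysteine, both on the C57BL/6J background. Because the cells of each genotype came from a pool of pups, wells are not separate animals and p-values measure the spread between wells, not between animals. The methods describe a pair of cell preparations that differed in litters, in plating density and in oxygen during expansion, whereas the labels give only replicate numbers. They also describe fewer wells per genotype and time point than the 4 replicates of the labels. Replicate 1 stood apart from replicates 2 to 4, with 39.9% of 20666 genes called between them, so values are given for both. In fits of genotype or day over all replicates without a replicate term, the spread between wells includes this gap. Which replicate came from which preparation is not stated in the labels, and replicate 1 against replicates 2 to 4 is used here only as the labels number them.

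Type I interferons are secreted upon sensing of viral or displaced nucleic acids and bind the IFNAR1/IFNAR2 receptor, whose kinases JAK1 and TYK2 phosphorylate STAT2. STAT2 and IRF9 are parts of the complex ISGF3, which binds the interferon-stimulated response element (ISRE) of its target genes. The targets block translation of foreign RNA, degrade RNA, conjugate ISG15 to proteins or raise the level of the sensors themselves, while USP18 dampens the response. ISGs are expressed at a low tonic level in most cells, and macrophages, which accompany OBs in primary bone cultures, commonly express many of them at a higher level.

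The promoters of these genes were examined first because the ISRE is the feature that classical ISGs share. RefSeq promoters (GRCm38.p6, 250 bases before to 50 bases after the start) were matched for 24 of the 33 members. The letters GAAANNGAAA, the core of an ISRE, occurred on either strand in 13 of these 24 promoters (54.2%) and in 943 of all 27025 promoters (3.49%). The longer form GAAANNGAAAC occurred in 11 of 24 (45.8%) and in 0.84% of all promoters, and every promoter with the longer form also holds the shorter one. TTCNNNGAA, the element bound by STAT dimers, was found in 4 of 24 (16.7%; *Bst2*, *Ifi35*, *Ifit2* and *Oas1a*), against 8.47% of all promoters. The stretches around the matches of 8 members are printed below to show how the copies are arranged, with the core in capitals, read 5′ to 3′ along each gene's own strand. A match on the opposite strand appears as the reverse complement.
Isg15: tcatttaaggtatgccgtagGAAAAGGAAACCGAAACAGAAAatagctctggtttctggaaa
Ifit1: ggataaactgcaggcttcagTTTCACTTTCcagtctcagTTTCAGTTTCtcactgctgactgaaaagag
Oas1a: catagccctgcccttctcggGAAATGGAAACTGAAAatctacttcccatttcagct
Oas3: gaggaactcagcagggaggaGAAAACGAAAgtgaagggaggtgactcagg
Bst2: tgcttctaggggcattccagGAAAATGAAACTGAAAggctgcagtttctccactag
Gbp2: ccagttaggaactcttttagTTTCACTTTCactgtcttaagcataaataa
Stat2: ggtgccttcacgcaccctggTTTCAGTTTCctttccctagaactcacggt
Ddx58: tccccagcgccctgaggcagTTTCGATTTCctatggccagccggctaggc
These stretches lie in GRCm38.p6 for *Isg15* at chr4:156200855-156200916 on the minus strand, *Ifit1* at chr19:34640765-34640833 on the plus strand, *Oas1a* at chr5:120907510-120907565 on the minus strand, *Oas3* at chr5:120777705-120777754 on the minus strand, *Bst2* at chr8:71537567-71537622 on the minus strand, *Gbp2* at chr3:142620584-142620633 on the plus strand, *Stat2* at chr10:128270256-128270305 on the plus strand and *Ddx58* at chr4:40239794-40239843 on the minus strand. *Isg15* had 3 overlapping copies, the first pair at positions −78 and −72 from the start, and *Bst2* had overlapping copies at −130 and −124. *Ifit1* had separate copies at −104 and −85, and *Oas1a* had overlapping copies at −20 and −14. *Oas3* and *Gbp2* had 1 copy each at −75 and −59, *Stat2* had 1 at −222, and in *Ddx58* the match lay just after the start. The other members with a match were *Gbp3*, *Ifih1*, *Ifit3*, *Ifit3b* and *Rsad2*. A match describes these letters in this window only.

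Levels are given as RQ × 1000, the count of a gene divided by a library's housekeeping value (the geometric mean of the counts of *Actb*, *Actg1*, *Sdha* and *Mrfap1*) and multiplied by 1000. Total counts were 17140202 to 25825762 in the 6 libraries of replicate 1 and 28159342 to 59734231 in the other 18, and the geometric mean of these 4 housekeeping genes was 428 to 629 CPM. Every member had at least 1 count in every library. Per kilobase of exon, *Bst2*, which encodes the tethering protein tetherin, had the highest median level over the libraries (61.4, range 15.1 to 142), followed by *Isg15* (19.0), *Ifi35* (17.2), *Ddx58* (11.5) and *Ifit3* (10.9). The lowest were *Mx1* (0.200), *Oasl1* (0.233) and *Oas3* (0.237), and the ranges of neighbours in this order overlapped. Among members with at least 10 counts in every library, the highest library exceeded the lowest by 51.6-fold in *Oasl2*, 23.3-fold in *Ifit1* and 16.8-fold in *Isg15*. This ratio was 1.87 in *Ddx58*, 2.00 in *Stat2* and 2.03 in *Ifi35*. The label of the cells was checked with 8 OB markers (*Col1a1*, *Col1a2*, *Runx2*, *Sp7*, *Alpl*, *Ibsp*, *Bglap* and *Dmp1*), none of which was at 0 in any library and whose summed level was 32286 to 339792.

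**Figure D1:**
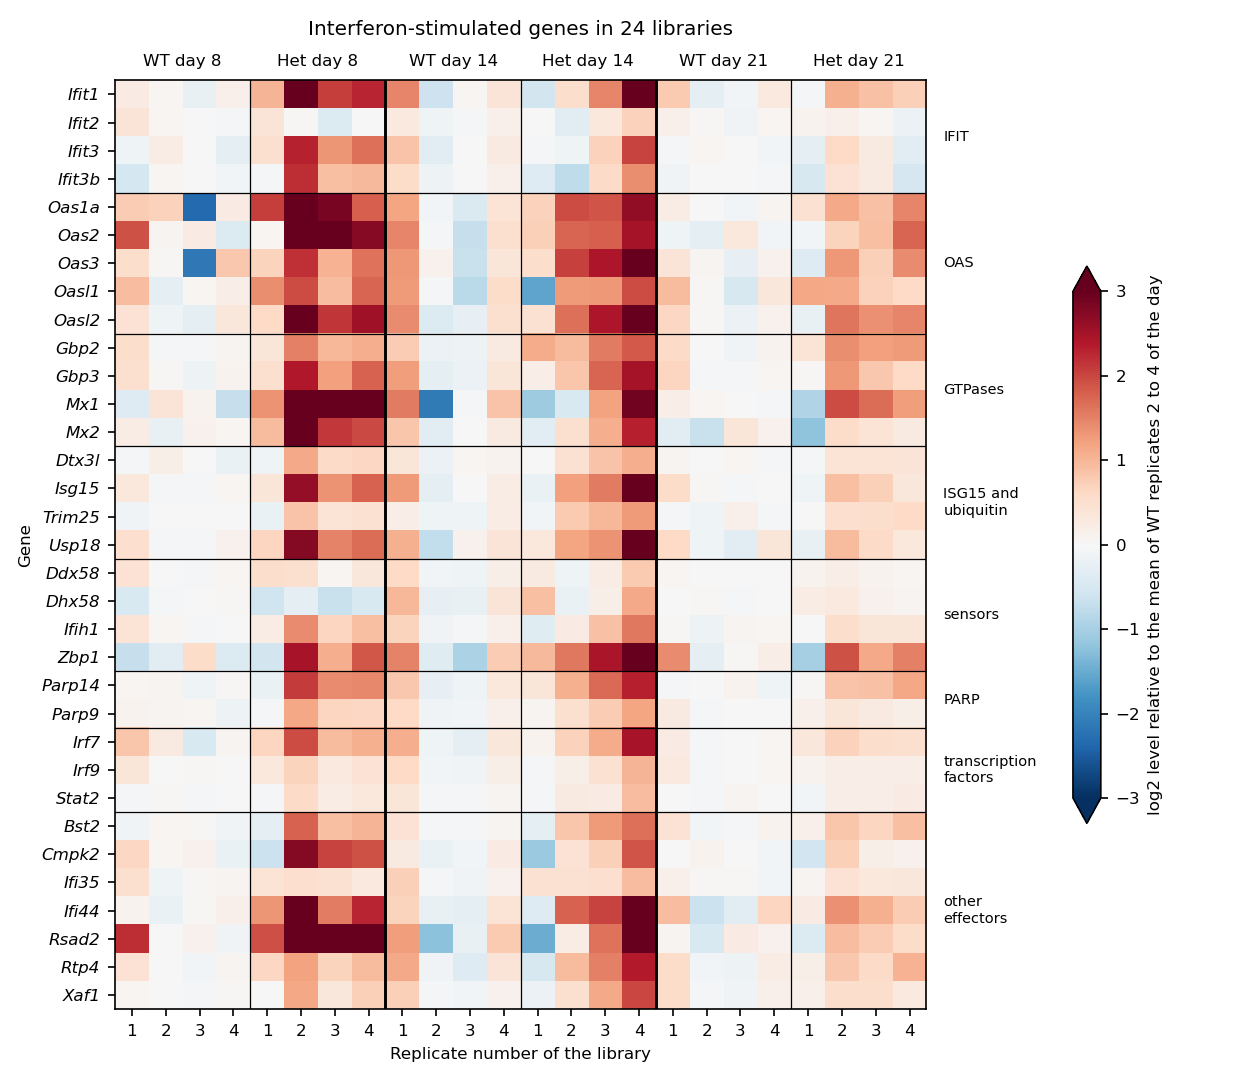
Log2 level of each of the 33 genes (rows, grouped by role) in each of the 24 libraries (columns), relative to the mean of WT replicates 2 to 4 of the same day, with the colour scale limited to −3 to 3. Het replicates 2 to 4 are red in most rows, most strongly at days 8 and 14, while the rows of Het replicate 1 have medians of 0.39, −0.05 and 0.03 at days 8, 14 and 21 with single rows further from 0 in either direction, and WT replicate 1 is red in all 33 rows at day 14.

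Het and WT were first compared at days 14 and 21 over all replicates, 8 libraries per genotype. Of the 33 members, 11 were higher in Het and none was lower in edgeR's quasi-likelihood test at an adjusted p under 0.05, while 7.85% of the 18881 genes tested were called higher and 9.75% lower. The fitted difference was positive for 33 of 33 members, with a median of 0.75 on the log2 scale against −0.05 over all genes tested. The 11 genes were *Oasl2* (log2 difference 1.58 ± 0.42, SE), *Oas3* (1.47 ± 0.40), *Oas1a* (1.29 ± 0.26), *Ifi44* (1.27 ± 0.40), *Oas2* (1.17 ± 0.31), *Gbp2* (1.08 ± 0.18), *Parp14* (1.06 ± 0.24), *Bst2* (0.74 ± 0.20), *Trim25* (0.62 ± 0.15), *Dtx3l* (0.43 ± 0.13) and *Ifi35* (0.33 ± 0.11). Thus 4 of the 5 OAS genes were called, but none of the 4 IFIT genes, the 4 sensors or the 3 transcription factors. With the replicate number as a block the count was 13, with *Gbp3* and *Zbp1* added (9.17% of genes were higher). This count rested on all of replicates 2 to 4: it was 1 without replicate 2, 0 without replicate 3 and 0 without replicate 4, and 28 without replicate 1. Leaving out single libraries gave 7 without WT day 14 replicate 2, 7 without WT day 14 replicate 4 and 20 without Het day 14 replicate 1. In bulk RNA, a change in the number of cells that express a gene and a change in its RNA per cell cannot be told apart.

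Within replicates 2 to 4, 28 of 33 members were called higher in Het at days 14 and 21 (17.4% of all genes) and none lower (22.4%), with a median log2 difference of 1.10. Over all 3 days, 31 of 33 were called higher (15.5% of all genes), all but *Ifit2* (0.07 ± 0.11) and *Dhx58* (0.09 ± 0.16). At day 8 every Het library lay above every WT library of these replicates in 31 of 33 members (8.63% of genes did so). At day 14 this held in 26 of 33 members (18.5% of genes), at day 21 in 28 of 33 (18.2%), and on each of the 3 days in 24 of 33 (4.28%). The ratio of mean Het to mean WT level had a median over the members of 3.04 at day 8, 2.85 at day 14 and 1.56 at day 21. The Het libraries themselves were not alike. Relative to WT replicates 2 to 4 of the day, the median member level was 4.31, 2.00 and 2.7 in Het day 8 replicates 2, 3 and 4, and 1.51, 2.42 and 4.14 at day 14. At day 21 it was 1.64, 1.49 and 1.41, so that the libraries were closest to each other at the last day.

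Within replicate 1, with 1 library per genotype and day, no member was called higher in Het. In these fits the days were the only replicates of a genotype. Their calls and p-values thus rest on days, not on wells of the same day. Over the 3 days of replicate 1 alone, 0 of 31 members tested were called in either direction (0.104% of all genes were called in edgeR), 9 had an unadjusted p under 0.05, and the median log2 difference was −0.39. At days 14 and 21 of replicate 1 alone, 0 members were called higher and 2 lower, where 0.187% of genes were called higher and 0.922% lower. The 2 were *Ifit1* (log2 difference −1.34) and *Isg15* (−1.05). The Het library was above the WT library in 18 of 33 members at day 8, 1 of 33 at day 14 (*Gbp2*) and 8 of 33 at day 21, while this was so for 52.2%, 26.1% and 62.4% of genes. The ratio of Het to WT had a median of 1.01, 0.593 and 0.839 at days 8, 14 and 21. Both genotypes moved: in WT alone, 18 of 33 members were higher in replicate 1 than in replicates 2 to 4 (31.2% of all genes were), and in Het alone 21 of 33 were lower (5.82% of all genes were). Over both genotypes together, 1 member was called between replicate 1 and replicates 2 to 4, *Trim25*, which was lower (−0.37 ± 0.12, adjusted p = 0.019), where 33.1% of genes were higher and 6.76% lower.

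The difference itself between the Het effect in replicate 1 and that in replicates 2 to 4 was tested in all 24 libraries. It was called lower in 23 of 33 members (as in 4.31% of 21173 genes) and higher in none (4.23%), with a median of −1.53 on the log2 scale against 0.01 over all genes tested. Among members whose values are given by the naming rule, it was −2.99 ± 0.61 for *Oasl2* (adjusted p = 0.0050), −2.54 ± 0.65 for *Ifit1* (0.019), −2.09 ± 0.52 for *Oas2* (0.016), −1.61 ± 0.33 for *Parp14* (0.0051) and −0.80 ± 0.17 for *Trim25* (0.0073). The 10 members without a call were *Irf7*, *Stat2*, *Mx2*, *Rsad2*, *Oasl1*, *Ifit3*, *Ifit3b*, *Ddx58*, *Ifit2* and *Dhx58*, and *Irf7* was called with the replicate block (24 members, 4.21% of genes). Without WT day 14 replicate 1, and likewise without Het day 14 replicate 1, 2 members were called, *Bst2* and *Gbp2*. The share of all genes called in these fits is not given. The fall cannot be told apart from a loss of calls over all genes with fewer replicate 1 libraries. The count was 14 without replicate 3, and 16 at days 14 and 21 alone (4.51% of genes).

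**Figure D2:**
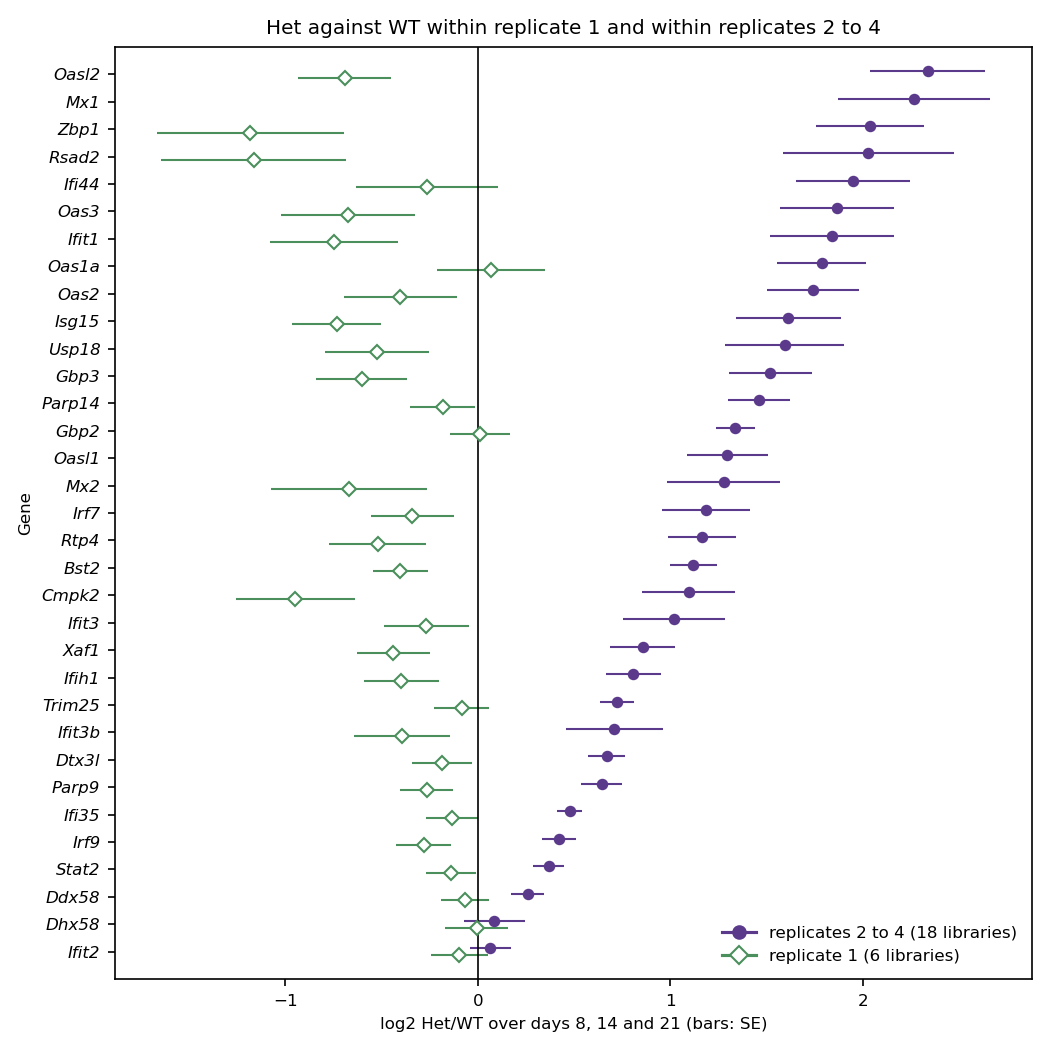
Log2 ratio of Het to WT over days 8, 14 and 21 for each gene, fitted in replicates 2 to 4 (filled circles, 18 libraries) and in replicate 1 (open diamonds, 6 libraries), with standard errors. In replicate 1 the days were the only replicates of a genotype. All 33 circles lie right of 0, from 0.07 in *Ifit2* to 2.34 in *Oasl2*, and most diamonds lie left of 0; *Mx1* and *Oasl1* have no diamond because their counts in replicate 1 were too low for the test.

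At day 8, 30 members were tested and 0 were called in edgeR over all 4 replicates, as were 0 of 18191 genes (0%). At an unadjusted p under 0.05 there were 27 members, DESeq2's Wald test called 12 (1.06% of genes were called higher), and the fitted log2 difference was positive in 28 with a median of 1.20. With the replicate block 13 of 33 were higher (0.894% of genes), and within replicates 2 to 4 alone 30 were higher (4.55%) and 1, *Dhx58*, was lower (14.1%). Without Het day 8 replicate 1 the count was 25, and without WT day 8 replicate 1 it was 2. The shares of all genes called without these libraries are not given. The effect at days 14 and 21 was not shown to differ from that at day 8: 0 of 33 members were called (0.177% of genes), 6 had an unadjusted p under 0.05, the block called 0, and the median difference was −0.34. DESeq2 called 1 lower, *Rsad2* (0.0593% of genes), as did replicates 2 to 4 alone (0.798%), where its 3 WT day 8 libraries held 1 count each.

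The OAS genes encode oligoadenylate synthetases, which activate RNase L upon binding double-stranded RNA, and OAS-like proteins. In mm10 (GENCODE M21) the 5 members lie on chromosome 5, with *Oas2* at chr5:120730333-120749853, *Oas3* at chr5:120753098-120777661 and *Oas1a* at chr5:120896256-120907521 on the minus strand, and *Oasl2* at chr5:114896936-114912234 and *Oasl1* at chr5:114923240-114937915 on the plus strand. *Oasl2* (ENSMUSG00000029561.17) had levels of 1.46, 0.986, 0.888 and 1.38 in WT day 8 replicates 1 to 4, and of 1.64, 13.6, 4.78 and 6.33 in Het. At day 14 they were 8.86, 2.48, 2.78 and 4.62 in WT against 4.53, 10.4, 17.8 and 45.8 in Het. At day 21 they were 12.2, 8.04, 6.98 and 8.71 in WT against 6.73, 24.1, 20.5 and 22 in Het. Within replicates 2 to 4 the genotypes did not overlap at any day, whereas in replicate 1 Het was below WT at days 14 and 21. *Oas2* had 0.514, 0.146, 0.161 and 0.103 in WT against 0.142, 1.75, 1.18 and 0.904 in Het at day 8, where WT libraries held few counts. It had 5.85, 2.08, 1.31 and 2.99 in WT against 3.51, 7.15, 7.37 and 12.1 in Het at day 14. At day 21 it had 5.86, 5.27, 8.04 and 6.07 in WT against 6.14, 10.3, 12 and 21.6 in Het. *Oas1a* and *Oas3* shared this order, with Het replicates 2 to 4 above WT replicates 2 to 4 at each day. *Oas1a* had 5.12, 2.12, 1.66 and 2.99 in WT against 3.63, 8.79, 8.35 and 14.2 in Het at day 14, and 6.90, 5.92, 5.61 and 6.23 against 8.12, 13.1, 10.9 and 16.2 at day 21. *Oas3* had 2.10, 0.936, 0.540 and 1.10 in WT against 1.25, 3.57, 4.60 and 10.6 in Het at day 14, and 3.78, 3.06, 2.43 and 3.11 against 2.18, 7.02, 4.73 and 7.62 at day 21. At day 8 the WT libraries held 1 to 9 counts of either gene, with a lowest level of 0.0404 (1 count), and the Het libraries held 12 to 65 counts of *Oas1a* (0.711 to 2.19) and 4 to 24 of *Oas3* (0.285 to 0.810). *Oasl1* was the exception of the family, with a mean of 13.4 counts and no call over all replicates (0.78 ± 0.33).

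The IFIT proteins bind foreign RNA that lacks host cap methylation, and the 4 members lie in 1 stretch of chromosome 19, from *Ifit2* (start 34550694) to *Ifit1* (end 34650009), on the plus strand. *Ifit1* had 2.74, 2.41, 1.98 and 2.59 in WT against 4.70, 22.8, 9.71 and 11.3 in Het at day 8. At day 14 it had 14.2, 3.34, 5.32 and 6.72 in WT against 3.51, 7.45, 14.1 and 46.1 in Het, the widest spread within a group of any day. At day 21 it had 15.2, 7.19, 8.36 and 10.8 in WT against 8.61, 18.3, 16.1 and 14.4 in Het. WT replicate 1 was thus above every other WT library on each day, and Het replicate 1 was below every other Het library. *Ifit3* had 4.72, 6.03, 5.08 and 4.28 in WT against 7.12, 25.4, 12.8 and 16.1 in Het at day 8. At day 14 its genotypes overlapped, with 25.6, 11.3, 13.9 and 16.9 in WT against 13.4, 12.8, 22.7 and 57.3 in Het, and they did so at day 21 as well, with 26.2, 27.8, 26.9 and 25.2 against 22, 40.5, 32.3 and 21.0. In replicates 2 to 4 *Ifit3* was called higher in Het at day 8 (1.82 ± 0.24, adjusted p = 0.00096) but not at days 14 and 21 (0.68 ± 0.30, adjusted p = 0.089). *Ifit2* had levels between 12.9 and 26.6 in all libraries and no call between genotypes over all replicates or within replicates 2 to 4.

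*Trim25*, a ubiquitin ligase that acts on the RIG-I pathway, had 16.8, 18.1, 18.2 and 18 in WT against 15.9, 32.5, 24.1 and 24.8 in Het at day 8. At day 14 it had 29.1, 23.2, 23.1 and 29.4 in WT against 24, 43.4, 50.7 and 60.7 in Het, and at day 21 it had 42.5, 40.7, 49.5 and 43.6 against 45.2, 63.5, 64.4 and 67.8. Het replicates 2 to 4 were above all WT libraries on each day. *Isg15*, named here after its values were seen, encodes the ubiquitin-like modifier of the pathway, and *Usp18*, likewise named, its protease. *Isg15* had 19.3, 6.64, 7.94 and 9.38 in WT against 6.91, 18.7, 23.6 and 68.3 in Het at day 14, and its log2 difference in replicates 2 to 4 was 1.43 ± 0.34 (adjusted p = 0.0045). That of *Usp18* was 1.39 ± 0.39 (adjusted p = 0.012).

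The PARP members modify proteins with ADP-ribose, and *Parp14* had 5.75, 5.81, 5.08 and 5.69 in WT against 4.84, 23.8, 14.8 and 15.1 in Het at day 8. At day 14 it had 21.7, 10.4, 11.3 and 15.3 in WT against 15.9, 26.0, 40.1 and 61.8 in Het, and at day 21 it had 30.1, 31.4, 34.1 and 28.9 against 32.3, 57.2, 58.0 and 70.9. Here too, Het replicates 2 to 4 were above all WT libraries on each day and Het replicate 1 was within or below the WT range. *Ifi44*, a cytoplasmic protein induced by interferon, had 2.10, 1.14, 1.08 and 1.78 in WT against 1.02, 4.54, 5.4 and 11.5 in Het at day 14. At day 8 it had 0.772, 0.621, 0.726 and 0.793 against 1.78, 7.12, 2.06 and 3.46. The genotypes of *Ifi44* did not overlap at this day. At day 21 its values were 4.63, 1.55, 1.90 and 3.82 in WT against 2.87, 6.29, 5.04 and 4.14 in Het. *Cmpk2*, a mitochondrial nucleotide kinase, had 4.11, 2.97, 3.24 and 4.02 in WT against 1.59, 4.62, 5.58 and 12.7 in Het at day 14. It had 0.857, 0.584, 0.605 and 0.483 against 0.356, 3.78, 2.28 and 2.10 at day 8, and 4.63, 5.02, 4.66 and 4.41 against 3.17, 7.71, 5.32 and 5.14 at day 21, with Het replicate 1 the lowest library on every day.

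The sensors behaved unevenly. *Ddx58*, which encodes RIG-I, had 104, 76.3, 74.1 and 79.9 in WT against 110, 107, 80.3 and 97.8 in Het at day 8. At day 14 it had 107, 66.9, 64.7 and 79.6 in WT against 84.4, 64.8, 81.9 and 121 in Het, and at day 21 it had 80.5, 76.8, 77.4 and 78.2 against 83.8, 88.7, 83.5 and 81.3. These groups overlapped at days 8 and 14, and the log2 difference at days 14 and 21 was 0.13 ± 0.11 (adjusted p = 0.45). *Dhx58*, which encodes LGP2, was the 1 member below WT at day 8 in every Het library of replicates 2 to 4 (29.1% of genes were), with a log2 difference there of −0.46 ± 0.12 (adjusted p = 0.025). *Ifih1*, which encodes MDA5, and *Zbp1*, a sensor of Z-form nucleic acids, were called higher in Het in replicates 2 to 4 at days 14 and 21 (0.71 ± 0.18 and 2.08 ± 0.34). Of the GTPases, which act on viral particles and vacuoles, *Gbp2* had the lowest adjusted p of the members (1.4 ± 0.13 in replicates 2 to 4, adjusted p = 4.6e-06), and *Gbp3* (1.38 ± 0.26), *Mx1* (1.74 ± 0.45) and *Mx2* (0.94 ± 0.30) were called as well. *Mx1* and *Mx2* are defective in most inbred laboratory strains, C57BL/6 among them. *Stat2*, *Irf9* and *Irf7*, the factor that amplifies interferon production, were called as well, with 0.37 ± 0.11 for *Stat2*, 0.40 ± 0.12 for *Irf9* and 1.10 ± 0.28 for *Irf7*.

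**Figure D3:**
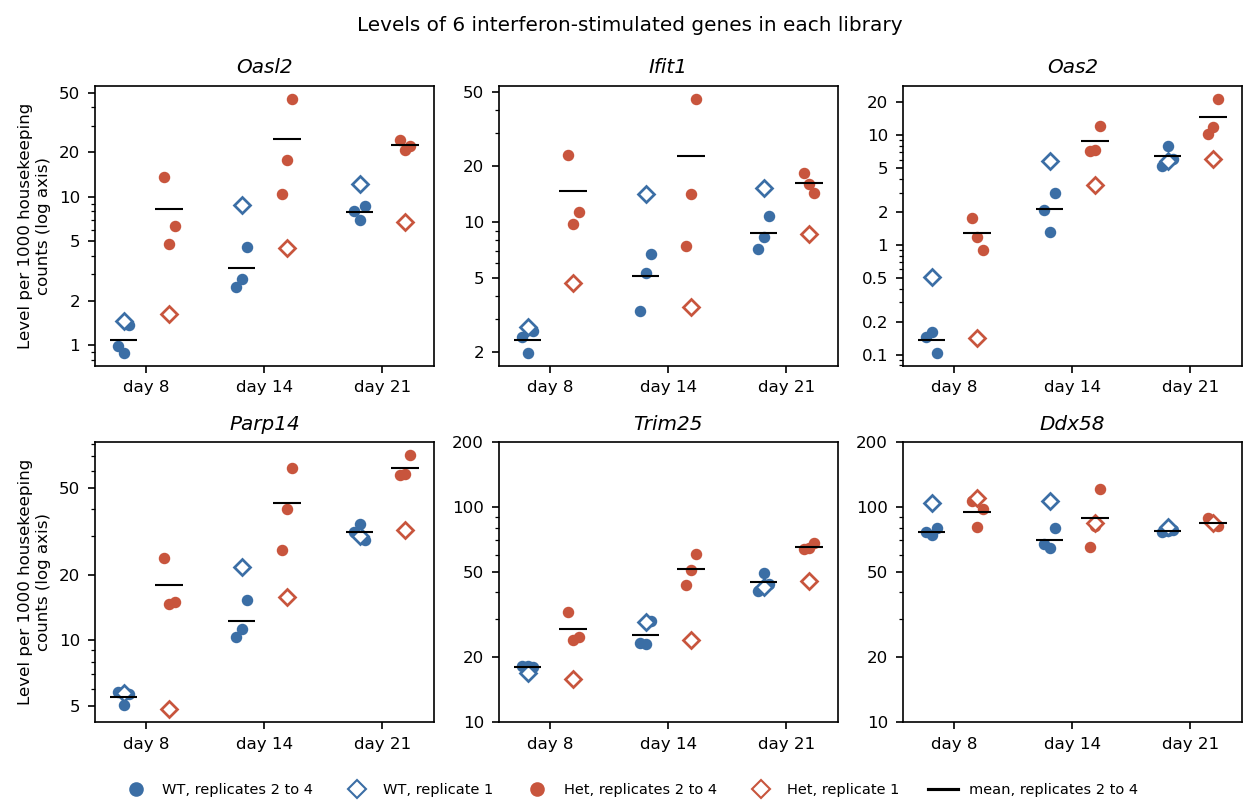
Level of 6 genes in each library (log axes, RQ × 1000) by day, WT in blue and Het in red, with replicates 2 to 4 as filled circles, their mean as a line and replicate 1 as open diamonds. For *Oasl2* the Het circles lie above the WT circles at each day while the Het diamond lies below the WT diamond at days 14 and 21, and *Ddx58* stays between 64.7 and 121 in all libraries.

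With time in culture, 27 of 33 members were higher at days 14 and 21 than at day 8 over both genotypes (40.9% of 20287 genes were) and none was lower (17.6%). The median log2 change was 1.12, against 0.15 over all genes tested. The largest changes were those of *Oas2* (3.83 ± 0.40, adjusted p = 3.6e-08), *Oas1a* (3.57 ± 0.32, adjusted p = 3.5e-09) and *Oas3* (3.28 ± 0.39, adjusted p = 2.8e-07). They were followed by *Rsad2* (2.64 ± 0.57), which encodes the antiviral enzyme viperin, *Cmpk2* (2.07 ± 0.33) and *Oasl2* (1.99 ± 0.40). The 6 members without a call were *Ddx58*, *Ifi35*, *Ifit2*, *Oasl1*, *Rtp4* and *Stat2*. Changes are relative to the scale used: with TMM, which moves the median of all genes to −0.02, *Ddx58* was called lower (−0.31), and with total counts both *Ddx58* (−0.44) and *Ifit2* (−0.30) were. The rise was called for 26 of 33 members in WT alone (37.4% of genes), 11 of 33 in Het alone (30.4%) and 25 of 31 in replicate 1 alone (23.5%). The change over time was not shown to differ between replicate 1 and replicates 2 to 4, with 0 of 33 members called (6.59% of genes) and a median difference of 0.25.

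From day 14 to day 21, 4 members rose, *Oas2* (0.90 ± 0.31), *Parp14* (0.84 ± 0.24), *Oas1a* (0.76 ± 0.26) and *Trim25* (0.58 ± 0.15), where 14.2% of genes rose, and none fell (6.41%). With the block, *Dtx3l* was added (15.5% of genes). In WT alone 8 rose (9.15% of genes), in Het alone 0 (0.31%), and the difference between the genotypes was not tested. The count was 0 without replicate 2, 0 without replicate 3 and 8 without replicate 1, with the shares of all genes not given.

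**Figure D4:**
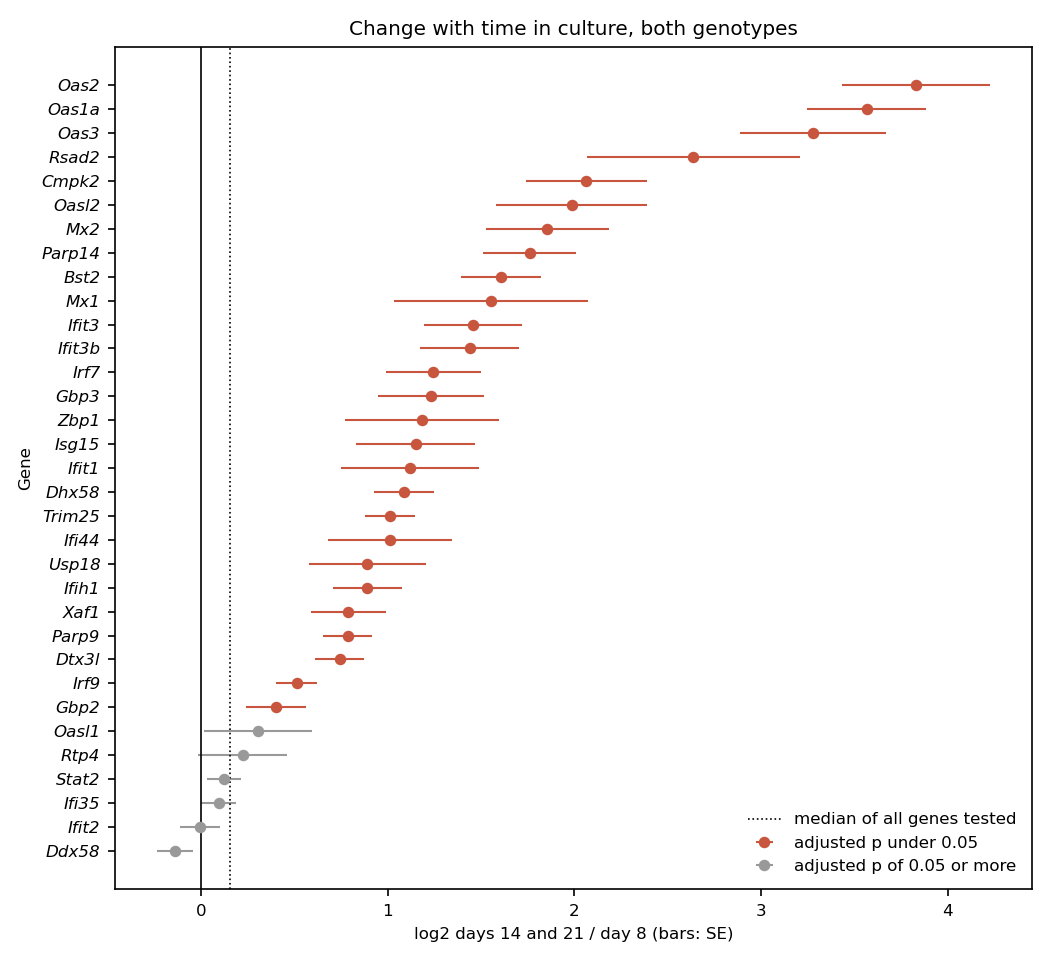
Log2 ratio of days 14 and 21 to day 8 over both genotypes for each gene, with standard errors, red where the adjusted p was under 0.05. The OAS genes *Oas2*, *Oas1a* and *Oas3* lie above 3, and *Ddx58*, *Ifit2*, *Ifi35* and *Stat2* lie below the dotted median of all genes (0.15).

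Macrophage markers moved with the members in these comparisons. Of 12 markers, 11 were called higher in Het at days 14 and 21 (7.85% of genes were), 12 within replicates 2 to 4 over the 3 days (15.5%) and 0 within replicate 1. In the difference between replicate 1 and the others, 12 were called lower (4.31%). All 12 were higher at the later days than at day 8 (40.9%). Their summed level was 230 to 283 in WT and 721 to 968 in Het replicates 2 to 4 at day 8, 1374 to 2324 and 6486 to 7009 at day 14, and 5904 to 6921 and 10795 to 17215 at day 21. In replicate 1 it was 466 in WT and 395 in Het at day 8, 4367 and 2974 at day 14, and 6024 and 7673 at day 21. None of the 12 was at 0 in any library. The largest part of this sum was *Lyz2*, with 1574895 counts over the libraries against 189158 for *Mrc1*, the next highest. In some Het libraries the summed level of the 33 members did not follow the macrophage sum. In Het day 14 replicates 2, 3 and 4 the member sum was 593, 779 and 1278 at macrophage sums of 7009, 6486 and 6527. Likewise, Het day 21 replicate 4 had the highest macrophage sum of all libraries but a member sum of 908, between those of replicates 2 (958) and 3 (883). From WT day 14 to WT day 21 in replicates 2 to 4, the macrophage sum went from 1374 to 2324 up to 5904 to 6921, and the member sum from 398 to 493 up to 620 to 652. Between genotypes, both sums were higher in Het in replicates 2 to 4 on each day, while replicate 1 was mixed. At day 8 in replicates 2 to 4 the member sum was 334 to 343 in WT and 474 to 715 in Het. Its largest parts in these WT libraries were *Ddx58* (mean 76.8) and *Stat2* (49.7), which varied little over the libraries, so the sum is weighted to them. In replicate 1 at day 14 the member sum was 675 in WT and 466 in Het, and the macrophage sum was lower in Het as well. At day 21 of replicate 1 the member sum was lower in Het (664 against 737 in WT) although the macrophage sum was higher. At day 8 of replicate 1 the member sum was nearly equal (401 in Het, 398 in WT) at a lower macrophage sum in Het. The part of the macrophage RNA in the differences of the members was not tested.

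**Figure D5:**
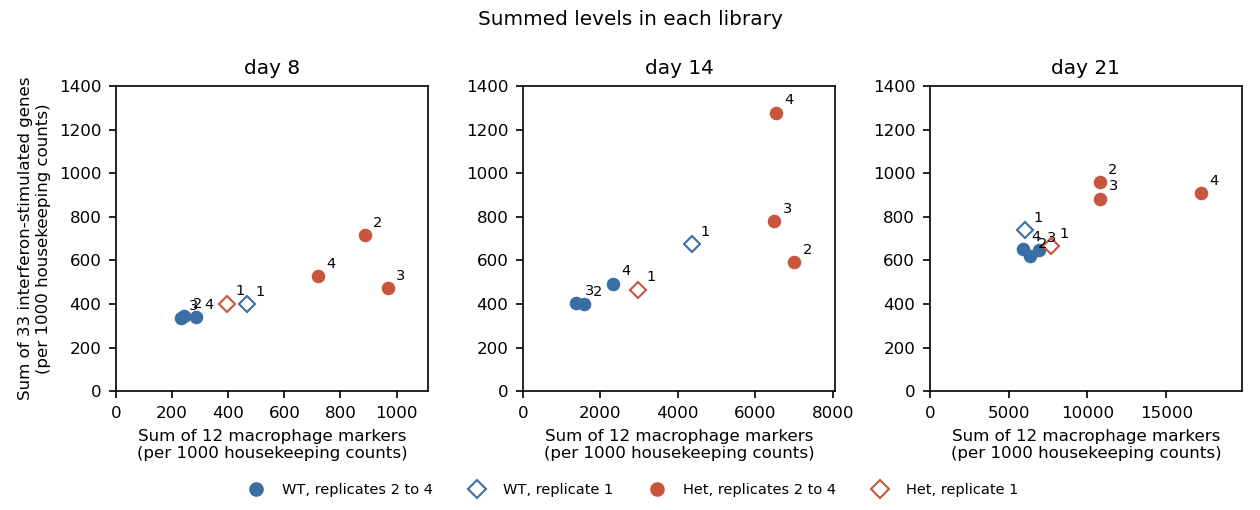
Summed level of the 33 genes against the summed level of 12 macrophage markers in each library, in a panel per day, with replicate numbers beside the points. Het replicates 2 to 4 lie to the right of and above WT replicates 2 to 4 on each day, and at day 14 they spread from 593 to 1278 at nearly equal macrophage sums.

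Markers of other blood cells were near the floor. Among 10 genes of lymphocytes and plasmacytoid dendritic cells, *Klra17* was at 0 in all libraries, and *Cd3e*, *Cd8a* and *Siglech* never exceeded 1 count. *Cd4*, which macrophages can express as well, reached 610 counts and made up most of the sum at day 21. The summed level of the 10 was 0.146 to 0.686 in WT and 0.285 to 0.846 in Het at day 8, and 5.31 to 9.08 and 15.6 to 25 at day 21. The sum of 5 neutrophil markers did not exceed 0.702 in any library. In replicates 2 to 4 the 8 osteoclast markers summed to 438 to 500 in Het and 457 to 545 in WT at day 8, and to 887 to 1078 and 904 to 974 at day 14, with overlap on both days. At day 21 the sum was lower in every Het library of these replicates, at 751 to 934 against 996 to 1061. It mainly describes *Ctsk*, with 365318 counts over all libraries against 22358 for *Acp5*, the next highest. *Calcr* was at 0 in 20 libraries, and *Mmp9* (24 to 1231 counts) and *Atp6v0d2* (6 to 865) weigh little in it. The 6 endothelial markers, of which *Emcn* and *Tie1* were at 0 in 16 and 17 libraries, had low sums that were higher in Het replicates 2 to 4 at day 14 (3.47 to 5.13 against 1.89 to 2.6 in WT) and day 21 (3.65 to 4.98 against 2.52 to 3.12) and overlapped at day 8 (1.77 to 2.13 against 1.25 to 2.23). At day 8 the sums of 5 muscle markers (29.4 to 34.7 in Het, 19.2 to 25.1 in WT) and 4 fibroblast markers (19.8 to 21.1 and 15.4 to 17.6) were higher in Het replicates 2 to 4, and both overlapped at days 14 and 21. The sum of 5 adipocyte markers did not exceed 3.46 in any library. The 8 OB markers were called lower in Het in 8 of 8 cases within replicates 2 to 4 over the 3 days (median log2 difference −0.61) and in none within replicate 1 (−0.08). Of all genes, 29.4% were called lower in that fit of replicates 2 to 4.

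Chondrocyte markers moved the opposite way to the members. All 6 were called lower in Het within replicates 2 to 4 over the 3 days (29.4% of genes were), with a median log2 difference of −1.93. None was called within replicate 1 (0.02). The difference between replicate 1 and the others was called higher in 6 of 6 (as in 4.23% of genes), with a median of 1.91. In replicates 2 to 4 their summed level was 5516 to 16938 in Het and 20461 to 25509 in WT at day 8, 1422 to 2589 and 6368 to 13325 at day 14, and 1166 to 1400 and 3574 to 5810 at day 21, so that the genotypes did not overlap on any day. In replicate 1 it was 33414 in Het and 34623 in WT at day 8, 23246 and 22302 at day 14, and 8044 and 8114 at day 21. None of the 6 was at 0 in any library. The largest part of their sum was *Col2a1*, with 4543539 counts over the libraries against 422246 for *Acan*, the next highest. The part of these other cell types in the differences of the members was not tested either.

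Upstream of the members, the files list 21 interferon genes, of which 14 had no count in any library, and the highest count of any of them in a library was 6, in *Ifnz*, which had 56 counts in all and none in 4 libraries. None of the 21 passed the filter on low counts, and they were not tested. Of 9 receptor and kinase genes, 2 were higher in Het at days 14 and 21, *Il10rb* (0.57, adjusted p = 0.0063) and *Ifngr2* (0.21, adjusted p = 0.030), and none was lower. The type I receptor genes *Ifnar1* (0.10, adjusted p = 0.16) and *Ifnar2* (0.16, adjusted p = 0.056) and the kinase genes *Jak1* (−0.08) and *Tyk2* (0.02) were not called. Of 8 other STAT and IRF genes tested, 3 were higher, namely *Irf8* (1.02, adjusted p = 0.0053), a factor of the myeloid lineage, *Irf1* (0.48, adjusted p = 0.0043) and *Irf5* (0.40, adjusted p = 0.016). *Irf3* was not called (0.04).

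Of 17 other genes of nucleic acid sensing, 6 were higher in Het at days 14 and 21 and none was lower. The endosomal receptor *Tlr9* (1.03, adjusted p = 0.0067), *Tlr8* (0.95, adjusted p = 0.028) and the DNA sensor *Aim2* (0.78, adjusted p = 0.042) had the largest differences, whereas *Cgas* (0.09), *Mavs* (0.02) and *Tbk1* (0.02) were not called. Of 10 genes that restrain or modify the response, 2 were higher (*Ptpn6*, 0.86, a phosphatase of blood cells, and *Uba7*, 0.43, the activating enzyme for ISG15) and 1 was lower (*Pias1*, −0.17). Of 52 further ISGs tested, 24 were higher and 1 was lower, with a median of 0.61. The chemokine genes *Cxcl9* (2.53 ± 0.56, adjusted p = 0.0081, no count in 4 libraries) and *Ccl5* (2.41 ± 0.41, adjusted p = 0.0020) and the GTPase gene *Gbp5* (1.77 ± 0.32, adjusted p = 0.0027) had the largest differences, and *Ifitm1* was the lower one (−0.43). Of 17 genes of MHC class I and antigen processing, 8 were higher and none was lower, led by the immunoproteasome subunit gene *Psmb8* (0.95 ± 0.17, adjusted p = 0.0027), *H2-Q4* (0.78) and *H2-D1* (0.63). The difference between replicate 1 and replicates 2 to 4 was called in 34 of 53 further ISGs, 14 of 17 MHC genes, 3 of 8 STAT and IRF genes, 4 of 17 sensing genes and 1 of 9 receptor and kinase genes, always as lower (4.31% of all genes). The same background of 7.85% applies to the counts of higher genes above.

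Deviations of the log2 level from the group mean were compared between genes. Over the 28 members with a mean of at least 50 counts, they had a median correlation of 0.776 over 378 pairs across the 24 libraries, all positive. Over all 14851 genes with that mean and a count in every library the median was 0.146, with 62.9% of pairs positive. Within replicates 2 to 4 (18 libraries) the medians were 0.822 for the members and 0.071 for all genes. Across the 24 libraries, *Ifit1* (mean 0.827), *Gbp3* (0.826) and *Ifih1* (0.823) were closest to the rest, and *Ifit2* (0.385), *Dhx58* (0.386) and *Ddx58* (0.526) were farthest. These correlations describe 24 libraries that share pools of cells and 1 scale per library, and they are not independent.

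Some counts could include reads of other genes, since the rule for reads matching several genes is not given in the sources used here. Of the stretches of 50 bases in their transcripts (GENCODE M21), 57.6% in *Oas1a* are found in *Oas1g*, 51.2% in *Ifit3* in *Ifit3b*, 44.5% in *Ifit3b* in *Ifit3*, 11.6% in *Rtp4* in the overlapping *Gm45338*, 7.06% in *Ifit1* in *Ifit1bl2* and 4.38% in *Mx2* in *Mx1*. The values of *Ifit3* and *Ifit3b*, and those of *Oas1a*, are uncertain to this extent. Exons of *Irf9* overlap *Rnf31* and those of *Parp14* overlap *Gm49730* on the same strand. On the other strand, *Irf7* overlaps *Phrf1*, *Parp9* overlaps *Dtx3l*, *Dhx58* overlaps *Dhx58os*, *Gbp2* overlaps *Mir6381*, and *Oasl1*, *Usp18* and *Ifi35* overlap *Gm13822*, *Gm44148* and *Gm11626*, and reads of such pairs cannot be told apart without the strand rule.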

How the data were processed

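Polyadenylated RNA of 24 wells was sequenced without molecular identifiers. The deposited values are raw counts per gene, which the authors made by trimming with cutadapt 2.5, aligning with STAR 2.73a to mm10 and counting with Subread's featureCounts 1.6.4, per the submitters' processing notes. The strand setting and the rule for reads matching several genes are not given in the sources used here. From the deposited counts, genotypes, days and replicates were compared with edgeR 4.0.16 (R 4.3.3, limma 3.58.1) by its quasi-likelihood test, after filterByExpr, with the geometric mean of 4 housekeeping genes as library scale and Benjamini-Hochberg adjustment over all genes tested at 0.05. A standard error is the size of the log2 difference divided by the square root of F. DESeq2 1.42.0 (Wald test), other scales, filters, a replicate block and fits without each replicate were the alternatives, and fits over 3 days within replicates 2 to 4 or replicate 1, single libraries left out for the difference between replicates and its fit at days 14 and 21 were added after seeing the data.

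Values in every library are given for members with a mean of at least 50 counts that had the largest called changes in a comparison, at most 5 each and filled up to 3 by the smallest p where fewer were called. The members and lists were chosen with earlier results of these data known. Libraries with the same replicate number deviated together from their group means (12 correlations over genes, 0.199 to 0.788, median 0.378, against −0.073 between different numbers). The main fits of genotype and day hold no replicate term and are not paired, and the block on these numbers is an alternative. Within replicates 2 to 4 this correlation was −0.014 to 0.160 (median 0.061, against −0.044 between different numbers). No 2 replicates of a group agreed within counting noise (36 pairs, chi-square per degree of freedom at least 5.14). The test was run on simulated data with 200 genes changed 4-fold, and for Het against WT at days 14 and 21 (18705 genes) it recovered 99% of them, with 2.46% false calls. The simulated counts held no replicate effect and no noise in the housekeeping genes, and the changed genes had a mean of at least 50 counts. These rates therefore do not describe smaller differences or data with the spread between replicate numbers seen here. The values of 1 gene of the pathway lists are not reported here.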

Additional observations from a re-analysis of the deposited data

Results flagged for a closer look

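The Het effect differed between replicate 1 and replicates 2 to 4 in 23 of 33 members by the test of the difference itself (edgeR, all 24 libraries). Among members with values in every library, this log2 difference was −2.99 for *Oasl2*, −2.54 for *Ifit1*, −2.52 for *Oas3*, −2.12 for *Ifi44*, −2.09 for *Oas2*, −1.93 for *Cmpk2*, −1.68 for *Oas1a*, −1.61 for *Parp14* and −0.80 for *Trim25*. Without WT day 14 replicate 1 or without Het day 14 replicate 1, the count was 2, with the share of all genes in these fits not given.

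Among 72 groups of 4 libraries examined, 4 held a library far from the other 3, where chance gives about 1 in 20. The median member level of WT day 8 replicate 1 was 1.28 times that of WT replicates 2 to 4. These 3 libraries are the reference of this score and are centred by construction, so the rate of 1 in 20 does not apply to it. *Oas2* was high in this library (0.514), *Trim25* was low in it (16.8), and *Parp14* was low in WT day 8 replicate 3 (5.08).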

How the results depend on the processing

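For Het against WT at days 14 and 21 (11 members called), the count was 28 in replicates 2 to 4 alone, 0 at day 14 alone and 1 at day 21 alone, and over all 3 days it was 31 in replicates 2 to 4 alone and 0 in replicate 1 alone. It ranged from 0 to 28 without 1 replicate and from 7 to 20 without 1 library. At day 8 (0 called) it was 12 with DESeq2, 13 with the replicate block, 19 with replicate 1 as a covariate and 31 in replicates 2 to 4 alone, and it ranged from 0 to 31 without 1 replicate and from 0 to 25 without 1 library. The block moved no other count by over 1.5 times. The later minus day 8 difference (0) had 1 call with DESeq2 and 1 in replicates 2 to 4 alone, and 0 to 1 without 1 replicate. The count of days 14 and 21 against day 8 (27) was 11 in Het alone and 21 to 27 without 1 replicate. The count of day 21 against day 14 (4) was 2 with total counts, 2 without *Mrfap1* in the scale, 2 with no filter, 8 in replicates 2 to 4 alone, 8 in WT alone and 0 in Het alone, and 0 to 8 without 1 replicate. The count of replicate 1 against the others (1) was 3 with TMM, 3 with DESeq2 size factors, 2 without *Actg1*, 2 without *Mrfap1*, 3 without *Sdha*, 18 in WT alone, 21 in Het alone, 5 at day 8 alone, 0 at day 14 alone and 0 at day 21 alone, and 0 to 1 without 1 replicate. The difference of the Het effect between replicates (23) had 14 to 26 calls without 1 replicate and 2 to 27 without 1 library, and the change over days between replicates (0) had 0 to 1. Fits without replicate 1 could not be made for comparisons with it. Shares of all genes called in fits without 1 replicate or 1 library are mostly not given. A changed count in them is not shown to be particular to the members. Where no construction shows it, the cause was not tested.

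In Het against WT, the fitted sign turned in replicate 1 alone at days 14 and 21 for *Bst2* (−0.50), *Dtx3l* (−0.24), *Ifi35* (−0.16), *Ifi44* (−0.81), *Ifit1* (−1.34), *Isg15* (−1.05), *Oas1a* (−0.086), *Oas2* (−0.30), *Oas3* (−0.77), *Oasl2* (−0.91), *Parp14* (−0.16) and *Trim25* (−0.084). Over all 3 days of replicate 1 it turned for *Bst2* (−0.40), *Dtx3l* (−0.19), *Ifi35* (−0.13), *Ifi44* (−0.26), *Oas2* (−0.40), *Oas3* (−0.67), *Oasl2* (−0.69), *Parp14* (−0.18) and *Trim25* (−0.082). In replicate 1 against the others it turned in WT alone for *Bst2* (0.30), *Gbp3* (0.83), *Ifih1* (0.36), *Ifit1* (0.94), *Isg15* (0.77), *Oasl2* (0.90), *Parp9* (0.34), *Rtp4* (0.71), *Trim25* (0.013), *Usp18* (0.73), *Xaf1* (0.46) and *Zbp1* (1.10), and in Het alone for *Gbp2* (−0.70). Over all genes, TMM moved the higher and lower calls from 1483 and 1840 to 2504 and 1539 for genotype, from 8304 and 3573 to 5574 and 6693 for the later days, and from 6841 and 1398 to 3192 and 3415 for replicate 1. Members with a mean under 50 counts (*Oasl1*, *Mx1*, *Zbp1*, *Rsad2* and *Mx2*) are limited by depth.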
